A study of Mus musculus with 6 samples.

Results

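The genes described here are 10 genes of lipid-handling macrophages of the TREM2 type: *Trem2*, *Tyrobp*, *Gpnmb*, *Apoe*, *Lgals3*, *Cd9*, *Cd63*, *Fabp5*, *Lipa* and *Abca1*. They were looked up by gene name among the 48733 named genes of each library. *Tyrobp*, *Apoe*, *Lgals3*, *Cd9*, *Lipa* and *Abca1*, 6 of the 10, have a named entry, 1 each, and all 6 passed the filter of a mean FPKM of at least 1. FPKM is the number of read fragments on a feature relative to its length and to all aligned fragments of the library. *Trem2*, *Gpnmb*, *Cd63* and *Fabp5* have no named entry. Each of these 4 overlaps 1 unnamed feature on its own strand, and the values of that feature are given for it.

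RNA-seq was carried out on femoral cortical bone from which the marrow had been spun out, and on osteoblasts grown out of the adherent stromal cells of bone marrow (BMSCs). All mice were of the inbred Collaborative Cross strain CC016/GeniUnc, and their age is not given in the sources used here. The stromal cells were driven to form bone with ascorbic acid, beta-glycerophosphate and dexamethasone, and no treatment is given for the bone. There were 3 libraries under each label, described as biological replicates, and the methods of the study give 3 mice. As the methods read, both the femora and the marrow for the cultures came from these mice, so the labels may share mice. Which libraries share a mouse is not given in the sources used here. The adherent cells were detached with trypsin and EDTA and seeded again before differentiation, and the protocol names no step meant to remove macrophages. Adherent marrow cultures are known to hold macrophages, and whether these cultures did was not tested.

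The libraries did not divide by label. *Hbb-bt*, the adult beta-globin gene that marks red cells, was above 1000 FPKM in the libraries labelled bone 3, osteoblasts 2 and osteoblasts 3. In bone 1, bone 2 and osteoblasts 1 it was at 3.43 to 7.05 FPKM. The summed FPKM of 9 neutrophil markers was 14433 to 17465 in the first 3 libraries and 2.60 to 10.2 in the other 3. The osteocyte gene *Sost* was at 0.0661 to 0.198 FPKM in bone 1, bone 2 and osteoblasts 1, so at or near 0 in 2 libraries labelled bone. It was at 15.8 to 22.7 FPKM in the others. *Dmp1*, also an osteocyte gene, ran the other way. It was at 50.0 to 127 FPKM in bone 1, bone 2 and osteoblasts 1 and at 22.5 to 24.2 FPKM in the others. *Col1a1* was at 1499 to 3332 FPKM in all 6. The summed FPKM of 15 macrophage markers was 10277, 5832 and 5697 in bone 1, bone 2 and osteoblasts 1, and 1809, 2209.9 and 2165 in bone 3, osteoblasts 2 and osteoblasts 3. Most of each sum was *Lyz2*, at 7332, 4330 and 3955 FPKM in the former and 1280, 1546 and 1596 FPKM in the latter. Aligned depth, read from the ratio of coverage to FPKM, was 2.035 to 3.388 Gb of sequence a library, at which 3 read pairs on a transcript of 1 kb amount to 0.133 to 0.221 FPKM. Unnamed features took 71.5% of the FPKM in bone 2 and 65.0% in osteoblasts 1, against 27.4% to 30.7% in the others, which lowers the FPKM of every named gene in those 2 libraries. No library was moved to another label, and every library is called by its deposited label. Whether each label belongs to its library was not tested, and the means and differences by label given here hold only as far as the labels do.

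TREM2 is a receptor of macrophages, microglia and osteoclast precursors that binds lipids, lipoproteins and debris of dead cells. It has no signalling tail of its own and acts through the adaptor TYROBP, also called DAP12, which recruits the kinase SYK. Macrophages that clear lipid or dying cells are known to raise a set of genes for the uptake, lysosomal breakdown, storage and export of lipid together with *Trem2*. In people, loss of *TREM2* or *TYROBP* causes a disease of bone cysts and dementia.

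The members with the widest spread among the libraries were *Trem2*, *Gpnmb*, *Apoe* and *Lipa*, and the sequence just upstream of each is printed to show what lies before their starts. The windows are the 250 bases before the transcript start in RefSeq on GRCm38.p6, the build of the deposited coordinates, read 5′ to 3′ on the strand of the gene. They are chr17:48346151-48346400 (plus) for *Trem2*, chr6:49036268-49036517 (plus) for *Gpnmb*, chr7:19699189-19699438 (minus) for *Apoe*, the most upstream of its 3 listed starts, and chr19:34527475-34527724 (minus) for *Lipa*. Capitals mark matches to a searched motif.

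Trem2: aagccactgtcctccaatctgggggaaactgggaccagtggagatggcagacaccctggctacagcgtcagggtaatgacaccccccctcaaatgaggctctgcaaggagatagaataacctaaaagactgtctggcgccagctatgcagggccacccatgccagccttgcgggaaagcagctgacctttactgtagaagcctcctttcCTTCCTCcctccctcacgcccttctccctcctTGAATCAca

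Gpnmb: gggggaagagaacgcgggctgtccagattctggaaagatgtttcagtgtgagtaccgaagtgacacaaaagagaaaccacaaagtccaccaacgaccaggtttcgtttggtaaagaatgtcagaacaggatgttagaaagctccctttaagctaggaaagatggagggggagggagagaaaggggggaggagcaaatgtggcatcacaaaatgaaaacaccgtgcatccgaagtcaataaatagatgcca

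Apoe: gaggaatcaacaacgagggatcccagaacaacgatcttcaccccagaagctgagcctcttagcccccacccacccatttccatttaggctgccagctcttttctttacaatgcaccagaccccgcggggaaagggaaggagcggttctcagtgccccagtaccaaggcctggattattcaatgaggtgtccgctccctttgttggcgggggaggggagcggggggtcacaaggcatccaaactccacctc

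Lipa: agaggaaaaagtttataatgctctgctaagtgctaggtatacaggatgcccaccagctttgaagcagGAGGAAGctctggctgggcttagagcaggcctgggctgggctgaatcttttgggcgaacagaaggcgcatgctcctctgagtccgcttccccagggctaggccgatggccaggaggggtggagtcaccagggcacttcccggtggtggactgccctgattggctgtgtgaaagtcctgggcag

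The motifs searched on both strands were CACGTG, the core of the E-box read by TFEB and its relatives, TCATGTG, the M-box read by MITF, GAGGAAG, a form of the PU.1 site, and TGANTCA. The last is a loose form of the AP-1 site, with N standing for any base. Among 32851 RefSeq promoter windows of the same length, 6.02% held CACGTG, 3.25% TCATGTG, 10.6% GAGGAAG and 6.75% TGANTCA. The *Trem2* window held GAGGAAG on the reverse strand 41 bases before the start and TGANTCA, in the form TGAATCA, 9 bases before it. The *Lipa* window held GAGGAAG 183 bases before the start, and none of the 4 motifs was in the *Gpnmb* window or in the 3 *Apoe* windows. Of the other members with an entry, *Abca1* had CACGTG 147 bases and *Cd63* had GAGGAAG on the reverse strand 60 bases before the start, and *Lgals3* and *Cd9* had none of the 4. These are matches of letters in a short window, and *Tyrobp* and *Fabp5* were not searched.

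*Trem2*, the receptor, was read from an unnamed feature at chr17:48345566-48355464 on the plus strand, which holds the RefSeq gene (48346401 to 48352276) and no other. Its FPKM was 165, 83.9 and 7.29 in the libraries labelled bone 1, 2 and 3, and 92.1, 8.22 and 5.69 in osteoblasts 1, 2 and 3. The 3 high values were thus those of bone 1, bone 2 and osteoblasts 1, and the labels overlapped. The mean was 85.3 ± 78.7 FPKM (SD, n = 3) under bone and 35.3 ± 49.2 (SD, n = 3) under osteoblasts. The highest library was 28.9 times the lowest.

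*Tyrobp* (chr7:30413760-30417585, plus strand) encodes the adaptor through which TREM2 and several other receptors of myeloid and natural killer cells signal. Its FPKM was 429, 194 and 343 in bone 1, 2 and 3, and 261, 368 and 353 in osteoblasts 1, 2 and 3. The highest library was 2.21 times the lowest, and *Tyrobp* stood above 98.8% to 99.4% of the named genes with at least 1 FPKM in every library. The mean was 322 ± 119 FPKM (SD, n = 3) under bone and 327 ± 58.0 (SD, n = 3) under osteoblasts. Receptor and adaptor therefore did not keep one proportion. The FPKM of *Trem2* divided by that of *Tyrobp* within a library was 0.384, 0.432 and 0.0212 in bone 1, 2 and 3, and 0.353, 0.0223 and 0.0161 in osteoblasts 1, 2 and 3. This ratio does not depend on how a library is scaled. Neutrophils also carry TYROBP, and the part of their RNA, which was high where the ratio was low, was not tested.

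*Gpnmb*, a transmembrane glycoprotein also called osteoactivin that is a target of MITF and rises in lipid-laden macrophages, was read from an unnamed feature at chr6:49036285-49070929 on the plus strand, with no other RefSeq gene inside. Its FPKM was 203, 139 and 3.57 in bone 1, 2 and 3, and 74.0, 3.40 and 3.92 in osteoblasts 1, 2 and 3. It had the widest spread of the 10 members, with the highest library at 59.7 times the lowest. The mean was 115 ± 102 FPKM (SD, n = 3) under bone and 27.1 ± 40.6 (SD, n = 3) under osteoblasts. Within its library *Gpnmb* stood above 96.4% to 98.7% of the expressed named genes in bone 1, bone 2 and osteoblasts 1, and above 31.8% to 35.8% in the other 3.

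*Apoe* (chr7:19696109-19699188, minus strand) encodes the secreted apolipoprotein that carries cholesterol out of macrophages and binds TREM2. Its FPKM was 2702, 887 and 192 in bone 1, 2 and 3, and 1464, 156 and 132 in osteoblasts 1, 2 and 3. It was the highest of the 10 members in bone 1, bone 2 and osteoblasts 1, with *Tyrobp* next, and *Tyrobp* was the highest and *Apoe* next in the other 3. The mean was 1261 ± 1296 FPKM (SD, n = 3) under bone and 584 ± 762 (SD, n = 3) under osteoblasts. Even its lowest library placed *Apoe* above 97.3% of the expressed named genes. *Trem2* and *Gpnmb*, by contrast, were the lowest 2 members in bone 3, osteoblasts 2 and osteoblasts 3.

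*Lipa* (chr19:34492318-34527474, minus strand) encodes lysosomal acid lipase, which frees cholesterol and fatty acids from the lipid esters that a macrophage takes up. Its FPKM was 120.3, 117 and 18.2 in bone 1, 2 and 3, and 88.4, 15.6 and 23.2 in osteoblasts 1, 2 and 3. The same 3 libraries were high as for *Trem2*, and the labels overlapped. The mean was 85.3 ± 58.2 FPKM (SD, n = 3) under bone and 42.4 ± 40.0 (SD, n = 3) under osteoblasts.

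*Abca1* (chr4:53030787-53159895, minus strand), the transporter that exports cholesterol to apolipoprotein A-I, did not share this order in FPKM as deposited. Its FPKM was 23.5, 12.3 and 20.1 in bone 1, 2 and 3, and 15.8, 11.6 and 14.1 in osteoblasts 1, 2 and 3. It varied by 2.02-fold from lowest to highest, the least of the 10 members in FPKM as deposited. Both statements depended on scaling. Scaled to the 75th percentile or to named genes, bone 1, bone 2 and osteoblasts 1 were its highest 3. *Abca1* then varied by 1.93-fold and 2.99-fold, against 1.12-fold and 1.84-fold for *Tyrobp* and 1.19-fold and 1.72-fold for *Cd9*.

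*Fabp5*, a carrier of fatty acids inside the cell, was read from an unnamed feature at chr3:9942935-10016607 on the plus strand. That feature is 73673 bp long and also holds the pseudogene *Gm17877*, so its values are uncertain as a measure of *Fabp5*. The FPKM was 44.3, 30.2 and 13.9 in bone 1, 2 and 3, and 23.2, 20.1 and 13.4 in osteoblasts 1, 2 and 3. Bone 1, bone 2 and osteoblasts 1 were again the highest 3, but osteoblasts 1 and osteoblasts 2 lay close together.

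*Lgals3* (chr14:47367751-47386160, plus strand) encodes galectin-3, a lectin that macrophages make in quantity and that binds damaged lysosomes. Its FPKM was 236, 131 and 133 in bone 1, 2 and 3, and 223, 117 and 111 in osteoblasts 1, 2 and 3. Bone 1 and osteoblasts 1 stood above the other 4, which lay within 111 to 133 FPKM. The pseudogene *Gm52166* lies inside the feature.

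*Cd9* and *Cd63* encode tetraspanins, membrane proteins of the cell surface and of late endosomes and exosomes. *Cd9* (chr6:125460266-125494791, minus strand) was at 74.3, 37.6 and 63.4 FPKM in bone 1, 2 and 3, and at 46.0, 70.0 and 78.0 FPKM in osteoblasts 1, 2 and 3. The FPKM of *Cd9* divided by that of *Tyrobp* was 0.173 to 0.221 in the 6 libraries. Scaled to the 75th percentile, both genes were nearly level, the highest library being 1.19 and 1.12 times the lowest. Any 2 such genes would keep a steady ratio, and the share of all genes that did was not counted. The lncRNAs *Gm28809* and *Gm26728* lie inside the *Cd9* feature. *Cd63* was read from an unnamed feature at chr10:128900365-128912822 on the plus strand, which covers the RefSeq gene (128896231 to 128912822) except its 5′ part, and was at 44.0, 22.1 and 27.8 FPKM in bone 1, 2 and 3, and at 64.8, 24.3 and 27.4 FPKM in osteoblasts 1, 2 and 3. Osteoblasts 1 was the highest and bone 2 the lowest. Its near-identical pseudogene *Cd63-ps* was listed at 1.01 to 50.4 FPKM, highest in osteoblasts 1 as well, so reads may have been divided between both and the level of *Cd63* is uncertain.

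**Figure D1:**
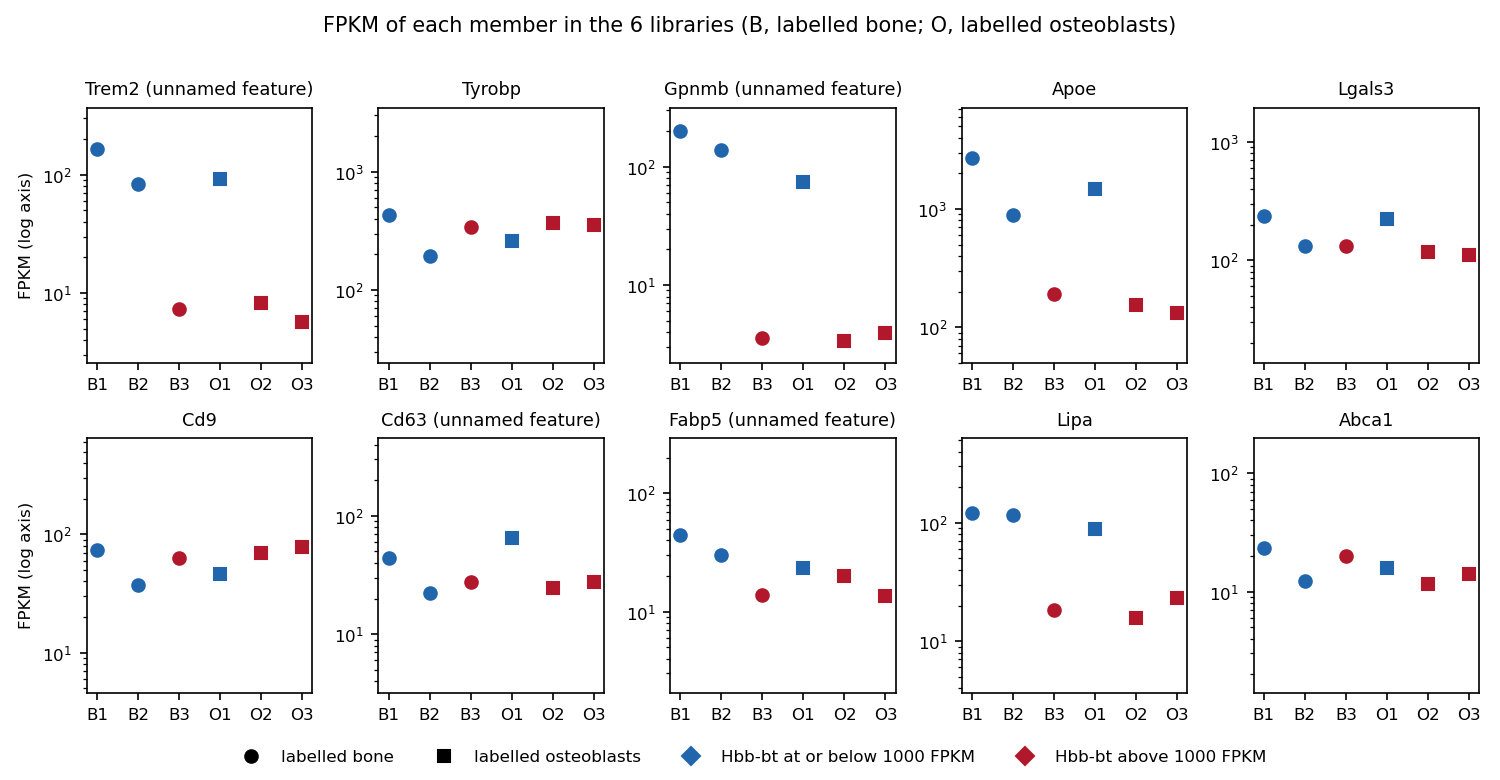
FPKM (log axis) of the 10 members in the libraries labelled bone (B1 to B3, circles) and osteoblasts (O1 to O3, squares), 1 point a library, blue where *Hbb-bt* was at or below 1000 FPKM and red where it was above. *Trem2*, *Gpnmb*, *Apoe* and *Lipa* were high in B1, B2 and O1, while *Tyrobp* and *Cd9* varied by 2.21-fold and 2.07-fold.

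In FPKM as deposited, 5 of the 10 members (*Trem2*, *Gpnmb*, *Apoe*, *Lipa* and *Fabp5*) had their 3 highest values in bone 1, bone 2 and osteoblasts 1, against 16.9% of the 12112 named genes tested. *Apoe* and *Lipa* were the 2 of the 6 named members. None of the 10 had its 3 highest values in bone 3, osteoblasts 2 and osteoblasts 3, where 38.4% of the genes tested had theirs. These counts describe 6 libraries and no test was made between libraries sorted by *Hbb-bt*. The count of members depended on the scaling, and so did the background. It was 10 of 10 against 50.1% when each library was scaled to the sum of its named genes, and 8 of 10 against 32.6% when scaled to the 75th percentile. It was 6 of 10 against 19.7% for coverage over depth, and again 5 of 10 against 16% in TPM. The background holds named genes only, and of the 6 named members the counts were 6, 4, 3 and 2 under these 4 scales. *Trem2*, *Gpnmb*, *Apoe*, *Lipa* and *Fabp5* had this order under all 5 scales, whereas *Lgals3*, *Abca1*, *Cd63*, *Tyrobp* and *Cd9* had it only under some. Scaled to the 75th percentile, *Tyrobp* and *Cd9* were nearly level, with the highest library at 1.12 and 1.19 times the lowest. The share of genes tested with their 3 highest values in bone 3, osteoblasts 2 and osteoblasts 3 also depended on the scaling. It was 19.9% scaled to named genes, 36.5% to the 75th percentile, 37.8% for coverage over depth and 25% in TPM.

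The spread of the members was set beside that of all genes. The SD of log2(FPKM + 1) over the 6 libraries was 2.67 for *Gpnmb*, 2.10 for *Trem2*, 1.86 for *Apoe* and 1.37 for *Lipa*, wider than for 98.6%, 97.6%, 96.7% and 92.7% of the genes tested. *Fabp5* and *Cd63* were near the middle, at 0.64 and 0.58. The SD was 0.47 for *Lgals3*, 0.42 for *Cd9*, 0.41 for *Tyrobp* and 0.38 for *Abca1*, wider than for 37.5%, 26.7%, 25.7% and 19.1% of the genes. The 10 genes thus did not vary as one block.

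*Csf1r*, the receptor for the growth factor that keeps macrophages alive, gives a further view that does not depend on scaling. It was at 363, 179 and 46.5 FPKM in bone 1, 2 and 3, and at 196, 51.7 and 44.0 FPKM in osteoblasts 1, 2 and 3. The FPKM of *Trem2* over that of *Csf1r* was 0.454, 0.470 and 0.157 in bone 1, 2 and 3, and 0.470, 0.159 and 0.129 in osteoblasts 1, 2 and 3. *Gpnmb* over *Csf1r* was 0.559, 0.778 and 0.0767, and 0.378, 0.0657 and 0.0889 in the same order. These 2 members were therefore lower per unit of *Csf1r* in bone 3, osteoblasts 2 and osteoblasts 3 than in the others.

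For *Apoe* the ratio ran from 2.99 to 7.47, with its 3 lowest values in those same libraries, and for *Lipa* it ran from 0.302 to 0.658 with the 2 kinds of library intermixed. *Tyrobp* over *Csf1r* was 1.18, 1.09 and 7.37 in bone 1, 2 and 3, and 1.33, 7.12 and 8.01 in osteoblasts 1, 2 and 3. *Lgals3*, *Cd9*, *Cd63*, *Fabp5* and *Abca1* likewise had their 3 highest ratios in bone 3, osteoblasts 2 and osteoblasts 3. *Csf1r* itself was at 44.0 to 51.7 FPKM there and at 179 to 363 FPKM in the others. A gene of even FPKM would therefore have this order of ratios too, and the share of all genes that had it was not counted. The 9 neutrophil, 5 erythroid and 7 B-cell markers measured had their 3 highest FPKM in bone 3, osteoblasts 2 and osteoblasts 3 too, and their part in these ratios was not tested. In bulk RNA, fewer cells of a type and less RNA per cell cannot be told apart.

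**Figure D2:**
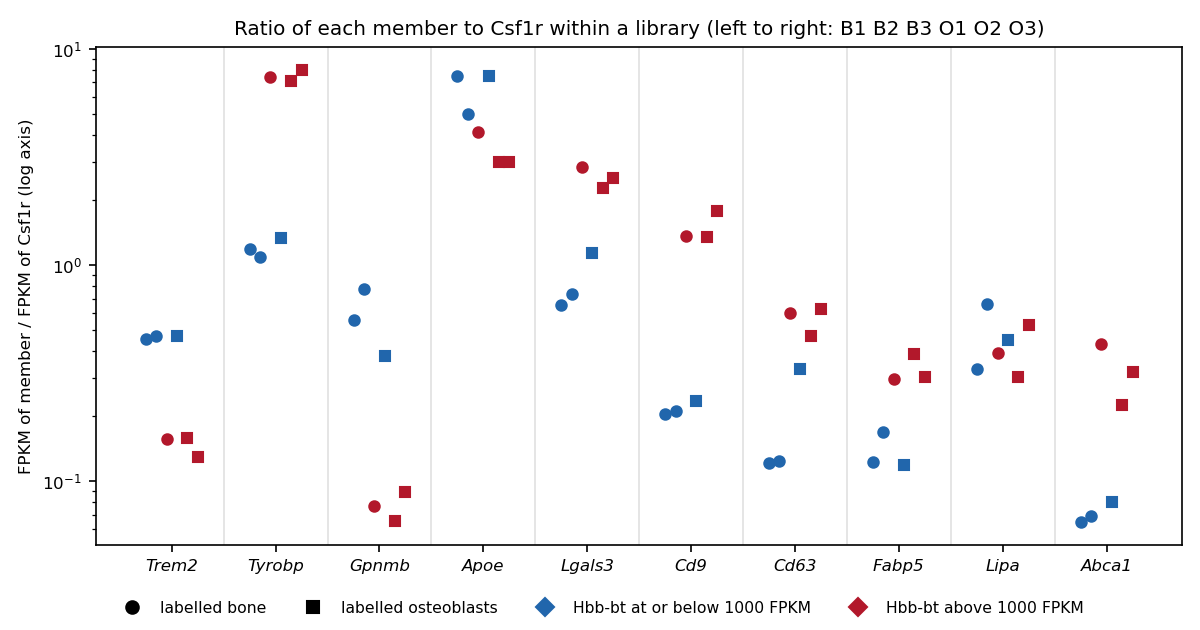
FPKM of each member divided by the FPKM of *Csf1r* in the same library (log axis), 1 point a library, from left to right B1 to B3 (labelled bone, circles) and O1 to O3 (labelled osteoblasts, squares), blue for *Hbb-bt* at or below and red for above 1000 FPKM. The ratio of *Trem2* was 0.454 to 0.470 in B1, B2 and O1 and 0.129 to 0.159 in the others, while that of *Tyrobp* was 1.09 to 1.33 and 7.12 to 8.01.

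The comparison that the study's design provides is between the labels. With limma, 0 genes were higher and 0 were lower under the label osteoblasts at an adjusted p under 0.05, or 0% of the 12112 genes tested, and 17 genes (0.14%) had an unadjusted p under 0.05. No member passed the adjusted or the unadjusted threshold in limma. The labels did not overlap for 111 genes (0.916%), and they overlapped for all 10 members.

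On the scale of log2(FPKM + 1), the difference of osteoblasts from bone was 0.082 for *Tyrobp* (standard error 0.58), -1.31 for *Apoe* (1.18), -0.98 for *Lipa* (0.89), -0.37 for *Abca1* (0.45), -0.17 for *Lgals3* (0.57) and 0.16 for *Cd9* (0.52), each with a limma adjusted p of 0.999. The members on unnamed features were fitted among 15753 features of any kind. Their difference was -1.45 for *Trem2* (standard error 1.27), -2.11 for *Gpnmb* (1.54), 0.22 for *Cd63* (0.56) and -0.50 for *Fabp5* (0.55), each with a limma adjusted p of 1.00. The standard errors of *Trem2*, *Gpnmb*, *Apoe* and *Lipa* were about as large as their differences. A difference of the size estimated was therefore not detectable with these libraries. The median difference was -0.27 over the 6 named members, 4 of them lower, and 0.12 over all genes, of which 37.4% were lower. When libraries were scaled to their named genes it was -0.45 over the named members, all 6 of them lower, and -0.032 over all genes.

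The values depended on single libraries. Without osteoblasts 1, limma called 312 named genes higher and 48 lower. The estimate was then -2.42 for *Apoe* (limma adjusted p = 0.187), and among all features it was -3.45 for *Gpnmb* (limma adjusted p = 0.0599) and -2.64 for *Trem2* (limma adjusted p = 0.112). Without bone 3, limma called 1 named gene higher and 2 lower, and the estimate was -3.85 for *Gpnmb* (limma adjusted p = 0.338) and -2.73 for *Trem2* (limma adjusted p = 0.339). With either of these libraries left out, none of the members was called. The estimates of *Tyrobp*, *Lgals3*, *Cd9* and *Cd63* changed sign when 1 library was left out, and those of the other 6 members were negative throughout.

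**Figure D3:**
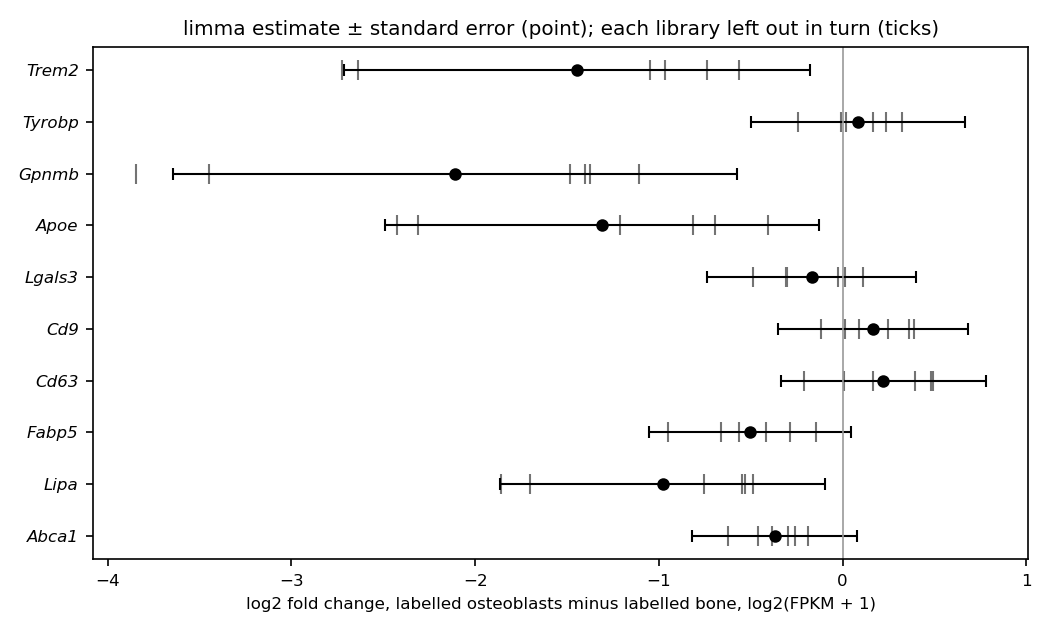
Difference of the label osteoblasts from the label bone in log2(FPKM + 1) for each member, as the limma estimate with its standard error (point and bar), with the estimates made without each library in turn as grey ticks. The estimate of *Gpnmb* was -2.11 and ran from -3.85 to -1.11 as libraries were left out, and those of *Tyrobp*, *Lgals3*, *Cd9* and *Cd63* fell on both sides of 0.

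The other genes of the pathway were taken from lists, and none of the list genes tested passed an unadjusted p under 0.05 between the labels in limma. With the replicate number added as a block, 12 of them were called at an adjusted p under 0.05, all neutrophil or erythroid genes, *S100a9* lowest (limma adjusted p = 1.33e-05). *S100a9* was at 0.922, 0 and 4775 FPKM in bone 1, 2 and 3, and at 0.573, 7072 and 8033 FPKM in osteoblasts 1, 2 and 3. Bone 2 and osteoblasts 2 were the only like-numbered libraries to differ in *Hbb-bt* state, and their *S100a9* values lay furthest apart. The values are therefore described by library, in FPKM as deposited. The shares of all genes to set beside the counts are 16.9% for the order of *Trem2* and 38.4% for the opposite one. Scaled to named genes, these shares were 50.1% and 19.9%. The list genes were not counted under other scales, so their orders hold for FPKM as deposited only. Of the partners in TREM2 signalling, 9 of 10 were measured, *Syk* having no named entry. List genes without a named entry were not sought among the unnamed features, so their lack here does not show that they were not expressed. *Plcg2*, the phospholipase downstream of SYK, was at 17.4, 9.67 and 38.8 FPKM in bone 1, 2 and 3, and at 9.79, 36.3 and 40.5 FPKM in osteoblasts 1, 2 and 3. *Hcst*, the adaptor DAP10, was at 3.94, 3.86 and 24.6, and at 3.02, 25.7 and 24.0 FPKM. *Plcg2*, *Hcst*, *Lcp2* and *Btk*, 4 of the 9, had their 3 highest values in bone 3, osteoblasts 2 and osteoblasts 3, a share near that of all genes. *Adam17*, a protease that sheds TREM2 from the cell surface, was the 1 with its 3 highest in bone 1, bone 2 and osteoblasts 1, at 12.7 to 19.6 FPKM there and 4.12 to 10.4 FPKM in the others.

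Of 13 further genes of the lipid-associated macrophage programme, 9 were measured, *Spp1*, *Itgax*, *Csf1* and *Ctsd* having no named entry. *Plin2*, *Cd36*, *Msr1*, *Ctsb* and *Ctsl* had their 3 highest values in bone 1, bone 2 and osteoblasts 1, as *Trem2* did. *Msr1*, the scavenger receptor for modified lipoproteins, was at 109, 62.9 and 0.393 FPKM in bone 1, 2 and 3, and at 42.0, 0.618 and 1.06 FPKM in osteoblasts 1, 2 and 3. The lysosomal protease gene *Ctsb*, the highest of the list, was at 496 to 993 FPKM in the 3 high libraries and at 171 to 198 FPKM in the others. *Axl* and *Cst7* ran the other way. *Cst7*, an inhibitor of cathepsins, was at 15.8, 21.8 and 16.7 FPKM in bone 3, osteoblasts 2 and osteoblasts 3, and was listed at 0 to 0.186 FPKM elsewhere.

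Among 12 genes of cholesterol handling measured, *Rxra*, *Npc2*, *Soat1*, *Nceh1* and *Apoc2* followed the order of *Trem2* in FPKM as deposited. *Nr1h2*, *Mylip* and *Apoc1* had their 3 highest values in the opposite libraries, and whether this held under other scales was not tested. *Npc2*, which carries cholesterol out of the lysosome, was at 82.9 to 166 FPKM in bone 1, bone 2 and osteoblasts 1 and at 53.6 to 60.0 FPKM in the others. *Nr1h2* encodes LXR-beta, one of the receptors that switch on *Abca1*, and was at 27.8 to 30.9 FPKM where it was high and 11.9 to 22.2 FPKM where it was low. Of 13 lysosomal genes, 7 followed the order of *Trem2*, *Lamp1* highest among them at 273 to 528 FPKM in bone 1, bone 2 and osteoblasts 1 and 104 to 125 FPKM in the others. *Mitf*, the factor that acts on *Gpnmb*, was at 8.83, 6.07 and 1.97 FPKM in bone 1, 2 and 3, and at 6.76, 3.17 and 3.71 FPKM in osteoblasts 1, 2 and 3. *Tfeb*, its relative and a regulator of lysosome genes, had the opposite order, at 13.9 to 17.4 FPKM in bone 3, osteoblasts 2 and osteoblasts 3 and 4.12 to 8.87 FPKM in the others.

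Relatives of the members within their gene families also parted. *Trem1*, the receptor of neutrophils and monocytes that signals through the same adaptor, was at 2.21, 2.34 and 49.9 FPKM in bone 1, 2 and 3, and at 1.78, 55.9 and 57.4 FPKM in osteoblasts 1, 2 and 3. *Treml1*, the relative found on platelets, was at 0.648, 0.390 and 39.5, and at 0.190, 65.6 and 43.9 FPKM. Both had their high values where *Trem2* was low. *Lgals1*, galectin-1, was at 1060.4, 508 and 135 FPKM in bone 1, 2 and 3, and at 670, 132 and 109 FPKM in osteoblasts 1, 2 and 3, a wider spread than that of *Lgals3*. Among the tetraspanins, *Cd82* was at 81.7 to 111 FPKM in bone 3, osteoblasts 2 and osteoblasts 3 and at 4.71 to 9.47 FPKM in the others, while *Cd81* ran the other way at 83.9 to 92.5 and 111 to 209 FPKM.

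Of the cell type markers, 11 of 15 macrophage markers had their 3 highest values in bone 1, bone 2 and osteoblasts 1. *Lyz2*, lysozyme, was highest at 3955 to 7332 FPKM there and 1280.3 to 1596 FPKM in the others. *Spi1*, the gene of PU.1, and *Timd4* had the opposite order. *Vsig4*, a complement receptor of resident macrophages, was at 4.23 to 15.2 FPKM in bone 1, bone 2 and osteoblasts 1 and was listed at 0 in the other 3. Of 8 osteoclast markers tested, 1 had the order of *Trem2* and 4 the opposite one. *Acp5*, tartrate-resistant acid phosphatase, was at 325 to 342 FPKM in bone 3, osteoblasts 2 and osteoblasts 3 and at 14.9 to 111 FPKM in the others, and *Tnfrsf11a*, the receptor RANK, was the 1 with the order of *Trem2*, at 11.7 to 20.3 and 1.26 to 2.28 FPKM. *F13a1* was the 1 of 3 monocyte markers with the order of *Trem2*, and of 7 osteoblast markers *Ibsp* and *Alpl* were those that had it. All 5 endothelial and all 3 skeletal muscle markers measured had their 3 highest values in bone 3, osteoblasts 2 and osteoblasts 3, and none of the 4 adipocyte markers had the order of *Trem2*. Of the 9 neutrophil markers, *Elane* was listed at 0 in bone 1, bone 2 and osteoblasts 1.

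**Figure D4:**
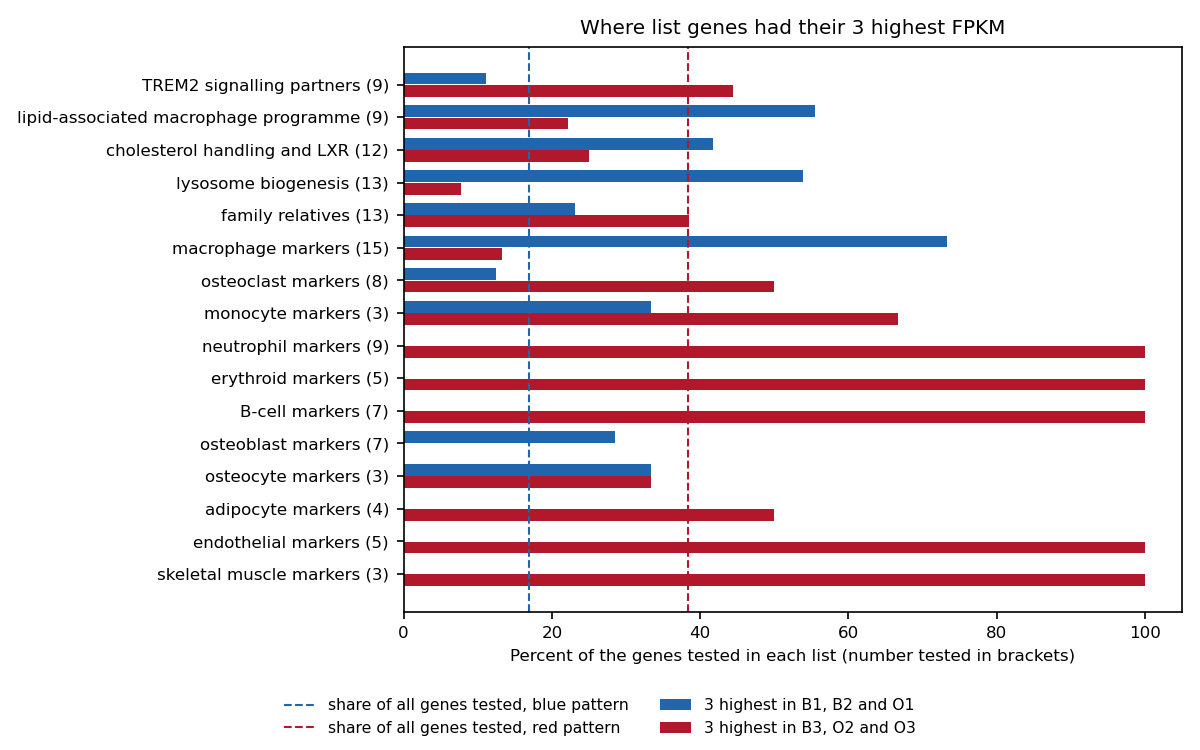
For each gene list, the percent of its tested genes whose 3 highest FPKM fell in B1, B2 and O1 (blue) or in B3, O2 and O3 (red), B standing for the label bone and O for osteoblasts, with dashed lines at 16.9% and 38.4%, the shares of all genes tested. Macrophage markers were mostly blue (11 of 15) and neutrophil, erythroid and B-cell markers all red. Scaled to named genes, the blue share of all genes is 50.1% and the red share 19.9%.

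Finally, the genes most like *Trem2* and *Gpnmb* were found by the root mean square difference of log2(FPKM + 1), centred on each gene's own mean over the 6 libraries, among the 12112 genes tested. The nearest to *Trem2* were *Wisp2* (0.15), *Adam23* (0.17), *Rgs16* (0.20), *Srpx2* (0.21) and *Thbs2* (0.21). *Wisp2* and *Thbs2* encode secreted proteins of connective tissue. *Thbs2* was at 389, 200.5 and 18.7 FPKM in bone 1, 2 and 3, and at 221, 14.6 and 11.1 FPKM in osteoblasts 1, 2 and 3. Of the named members, *Apoe* ranked 25 in this order and *Lipa* 149, and *Tyrobp* ranked 5751 at a difference of 2.06. Among the nearest to *Gpnmb* were *Rnf128* (0.24), *Ccnd1* (0.25), *Msr1* (0.31) and *Lox* (0.35). *Ccnd1* encodes cyclin D1 and *Lox* the enzyme lysyl oxidase that crosslinks collagen, and *Lox* was at 287 to 503 FPKM in bone 1, bone 2 and osteoblasts 1 and at 7.07 to 12.2 FPKM in the others. Likeness is a description here, all its points coming from the same 6 libraries.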

How the data were processed

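By the methods of the study and the labels, the authors isolated total RNA, made TruSeq libraries, aligned reads of 75 bp to GRCm38 with HISAT2 2.0.5 and estimated abundance with StringTie 1.3.3 on a merged annotation, and their processing notes also name SAMtools 1.7. The authors deposited 1 table a library of 93285 features with coverage, FPKM and TPM and without counts. FPKM are relative to all aligned fragments, those on unnamed features included.

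FPKM were summed by gene name. A member without a named entry was taken from the unnamed feature of its strand over the RefSeq gene (GRCm38.p6), and depth was read from the ratio of coverage to FPKM. Named genes whose FPKM averaged 1 or more were compared between labels with limma 3.58.1 in R 4.3.3 on log2(FPKM + 1), with a trend and Benjamini-Hochberg adjustment over all 12112, all 6 libraries and no covariate. The limma code was first run on simulated data with independent noise. Those data lacked the kinds of library seen here, which cross the labels, so that run cannot show how limma performs on these libraries. With the trend, limma draws the spread of each gene between these libraries towards that of genes of like FPKM. Its p-values therefore do not measure the spread of 1 gene alone. The standard error of *Gpnmb* was 1.54 in the main fit and 0.66 with the replicate block. Library state by *Hbb-bt* is a description, with no mean or test. Named genes are the members, the list genes of highest FPKM or that differ from the rest of their list, and the 5 genes most like *Trem2* and *Gpnmb*, of which 1 is not reported here. Some genes named in the lists were chosen after their values were seen. The members and lists were chosen with earlier results of these data known. The alternatives were other pseudocounts (0.1, 0.01), filters, TPM, other scalings, no trend, a replicate block and leaving out each library. Fits on all features, on coverage, and without the 2 libraries richest in unnamed features were added after seeing the data. Tables were made in Python 3.11.15 (pandas 2.3.3, numpy 2.4.6) and plots with matplotlib 3.10.9.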

Additional observations from a re-analysis of the deposited data

How the results depend on the processing

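No member passed an adjusted p under 0.05 in limma under any alternative, the lowest being 0.0599 for *Gpnmb* without osteoblasts 1, against a range up to 1.00. Of 180 alternative estimates of the members, 168 kept their direction and 12 changed sign. *Tyrobp* went from 0.082 to -0.0221 with scaling to the 75th percentile, -0.11 with scaling to named genes, -0.36 with quantile normalization and -0.08905 without the 2 libraries with most FPKM on unnamed features. *Cd9* went to -0.0248 with scaling to named genes, and *Cd63* to -0.42 without those 2 libraries. Leaving out 1 library gave -0.24 to 0.32 for *Tyrobp*, -0.49 to 0.11 for *Lgals3*, -0.12 to 0.39 for *Cd9* and -0.21 to 0.49 for *Cd63*. The other 6 members stayed negative, *Trem2* from -2.73 to -0.57, *Gpnmb* from -3.85 to -1.11, *Apoe* from -2.42 to -0.41 and *Lipa* from -1.86 to -0.49. Leaving out 1 library gave 0 to 312 genes higher and 0 to 48 lower. A replicate block on the shared numbers gave 46 genes higher, 3 lower and no member called, with 12 neutrophil or erythroid list genes among the calls. Bone 2 and osteoblasts 2 were the only like-numbered libraries to differ in *Hbb-bt* state. Across genes, which are not independent, the deviations of same-numbered libraries from their label means correlated at 0.84, -0.75 and 0.83. Among differently numbered libraries, bone 2 with osteoblasts 1 gave 0.80, bone 3 with osteoblasts 2 gave 0.83, and the rest gave -0.91 to -0.72. The positive values joined libraries alike in *Hbb-bt* state, so these correlations cannot show which libraries share a mouse. The numbers were not taken to pair the libraries, and the cause of the change in calls was not tested. The pseudogene of *Cd63*, the pseudogene inside the *Fabp5* feature, the unnamed share of bone 2 and osteoblasts 1, and 3 libraries a label limit these values. The tables hold no counts, so no interval is given for a single FPKM, and the stated floor covers counting error only.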
